A study of Arabidopsis thaliana with 8 samples.

Results

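The transcripts described here encode 3 enzymes of chlorophyll and tetrapyrrole synthesis in Arabidopsis: HEMA3 (AT2G31250), a glutamyl-tRNA reductase; CHLM (AT4G25080), the magnesium protoporphyrin IX methyltransferase; and AT1G74470, the geranylgeranyl reductase. They are the 3 probes, of 3439 on the arrays, that the platform's probe table assigns to one of these genes and to no other gene. Each has 1 such probe, among 692 probes for 691 genes in all. Whether the HEMA3 probe also binds transcripts of the other genes of its family was not tested. The study measured total RNA of wild-type plants of ecotype Columbia 0 with no other treatment named: 4 arrays from plants 4 weeks old and 4 from plants 3 weeks old, numbered 1 to 4 at each age. The labels name neither the organ nor the growth conditions. Nor do they say that the 4 arrays of an age are separate cultures or plants, so a p-value here covers the array-to-array spread alone, part or all of which may be technical.

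Chlorophyll and haem share one plastid pathway. Glutamyl-tRNA reductase takes the entry step, reducing the glutamate carried on its transfer RNA on the way to 5-aminolevulinic acid, and this step sets much of the flow into the pathway. In Arabidopsis a small family encodes the enzyme, with HEMA1 the form mainly used in green tissue. After protoporphyrin IX the path divides: iron leads to haem, and magnesium leads to chlorophyll. CHLM methylates magnesium protoporphyrin IX, an early step of the magnesium branch. Geranylgeranyl reductase works at the end, turning the geranylgeranyl chain into the phytyl tail of chlorophyll and also supplying phytyl groups for tocopherol.

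The deposited intensities separated the members. The probes for the entry enzyme and the last enzyme were lower at 4 weeks than at 3 weeks, and the probe for the middle enzyme was higher. By rank within each array all 3 were lower at 4 weeks. The arrays of both ages summed to similar totals, 3176 to 3359 at 4 weeks and 2882 to 3084 at 3 weeks, but their distributions differed: the median probe lay at 0.390 to 0.445 at 4 weeks and at 0.0239 to 0.0308 at 3 weeks, and 13.4% to 13.7% of the probes against 26.9% to 31.96% were listed at 0. Whether 1 scale holds for all 8 arrays is not stated in the labels or the files. Each member was above 0 on all 8 arrays.

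HEMA3, at the entry step, had deposited intensities of 1.04, 1.03, 0.375 and 0.352 on the 4-week arrays 1 to 4, against 1.67, 1.69, 1.30 and 1.29 on the 3-week arrays 1 to 4. Every 4-week array lay below every 3-week array, and the 4-week arrays formed 2 pairs, replicates 1 and 2 high and replicates 3 and 4 low. The means were 0.700 ± 0.389 at 4 weeks and 1.49 ± 0.222 at 3 weeks (SD, n = 4 each), 2.13-fold lower at 4 weeks. RNA of whole samples was measured, so fewer cells of a type and less RNA per cell cannot be told apart.

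CHLM, in the magnesium branch, had 0.567, 0.508, 0.597 and 0.531 at 4 weeks, against 0.181, 0.211, 0.244 and 0.182 at 3 weeks. The ages did not overlap, here with 4 weeks the higher, and the arrays of an age lay close together. The means were 0.551 ± 0.0390 at 4 weeks and 0.204 ± 0.0295 at 3 weeks (SD, n = 4 each), a deposited intensity 2.70-fold higher at 4 weeks.

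AT1G74470, at the end of the pathway, had 1.62, 1.59, 2.07 and 1.94 at 4 weeks, against 5.19, 4.92, 5.05 and 5.01 at 3 weeks. The 3-week arrays lay close together, and all 4-week arrays lay below them. At 4 weeks replicates 3 and 4 were above replicates 1 and 2, the opposite order to HEMA3. The means were 1.80 ± 0.238 at 4 weeks and 5.04 ± 0.111 at 3 weeks (SD, n = 4 each), 2.80-fold lower at 4 weeks.

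Over all probes, a lower deposited intensity with no overlap between the ages held for 8.69%, HEMA3 and AT1G74470 among them. Among probes as bright at 3 weeks as these members a lower value was common: the deposited mean was lower at 4 weeks for 75.4% of the 334 probes above rank percentile 90 at 3 weeks, and for 88.9% of the 171 above percentile 95. A higher one with no overlap, as in CHLM, held for 68.3% of all probes. Of the 824 probes above percentile 75 at 3 weeks, which include CHLM, 42.1% had a lower deposited mean at 4 weeks.

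**Figure D1:**
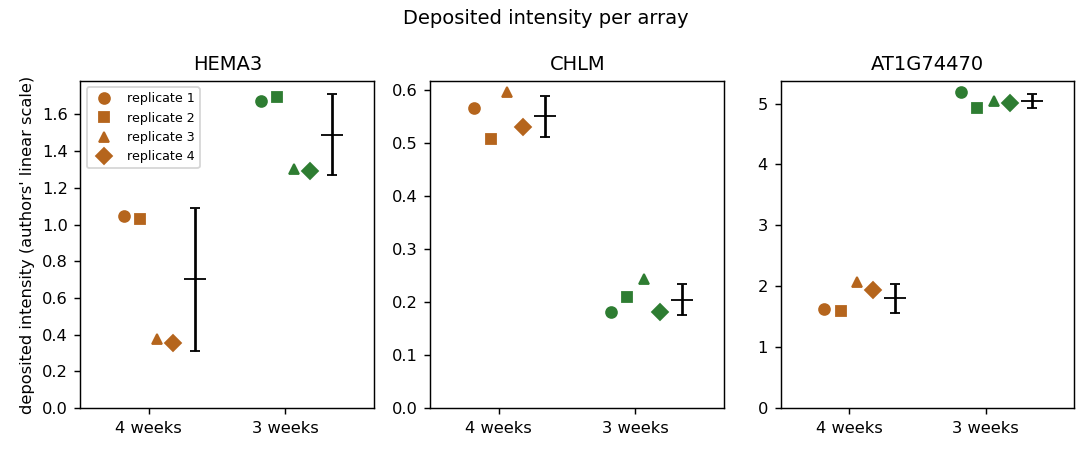
Deposited intensity (the authors' linear scale, from 0) of the 3 probes on each array, with 4 weeks left of 3 weeks; symbols mark the replicate number and the black bar gives the mean ± SD of 4 arrays. HEMA3 (mean 0.700 at 4 weeks, 1.49 at 3 weeks) and AT1G74470 (1.80 and 5.04) lie lower at 4 weeks, CHLM (0.551 and 0.204) lies higher, and the 4-week values of HEMA3 split by replicate pair.

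Rank within an array does not depend on how the array was scaled. On this measure, where 100 is the brightest of the 3439 probes, AT1G74470 stayed near the top and CHLM moved down. HEMA3 moved down by amounts that varied far more between arrays than those of CHLM. HEMA3 stood at percentiles 83.3, 82.6, 48.6 and 45.5 at 4 weeks and at 95.2, 95.1, 94.4 and 94.3 at 3 weeks. Counted from the brightest, this is place 576, 600, 1767 and 1876 at 4 weeks, against 167, 168, 193 and 196 at 3 weeks. The place was thus nearly constant at 3 weeks and spread widely at 4 weeks.

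CHLM stood at percentiles 61.4, 56.2, 66.5 and 61.3 at 4 weeks, against 79.1, 80.8, 82.5 and 79.4 at 3 weeks. Its probe was therefore above most others at both ages, and lower among them at 4 weeks although its deposited intensity was higher. Against the median probe of the same array the CHLM probe was 1.32 times as bright on average at 4 weeks and 7.50 times at 3 weeks.

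AT1G74470 stood at 91.9, 91.4, 95.4 and 94.9 at 4 weeks, against 97.7, 97.7, 97.8 and 97.7 at 3 weeks. It stayed among the brightest 10% of the probes on all 8 arrays. It held place 160 to 296 at 4 weeks and 76 to 81 at 3 weeks.

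The differences in mean rank percentile, 4 weeks minus 3 weeks, were -29.8 for HEMA3, -19.1 for CHLM and -4.31 for AT1G74470. The ages did not overlap for any of the 3, and an exact permutation test over the 8 arrays gave p = 0.0286 for each (two-sided, adjusted p = 0.0286 over the 3), the smallest p that 4 arrays against 4 allow. With arrays matched by replicate number an exact sign-flip permutation cannot go below 0.125, which all 3 gave. Of all probes, 37.2% had a lower rank at 4 weeks with no overlap between the ages and 30.8% a higher one, so 3 of 3 lower is a small count against a common pattern. Probes that are bright at 3 weeks have more room to move down: of the 334 probes above percentile 90 at 3 weeks, which include HEMA3 and AT1G74470, 83.8% had a lower mean rank at 4 weeks, with a median percentile of 81.1 there and quartiles at 55.4 and 94.9. AT1G74470, at 93.4 ± 2.03, was above that median and HEMA3, at 65.0 ± 20.8, was below it (SD, n = 4). Of the 824 probes above percentile 75 at 3 weeks, which include CHLM, 76.3% had a lower mean rank at 4 weeks. Their median percentile there was 71.5, with quartiles at 47.6 and 89.9. CHLM, at 61.3 ± 4.21 (SD, n = 4), lay between these quartiles.

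**Figure D2:**
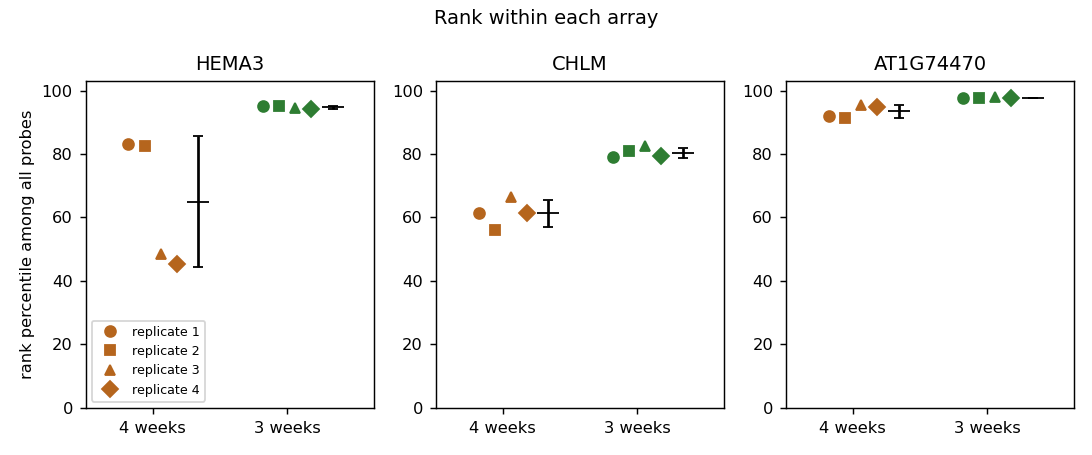
Rank percentile of the 3 probes among the 3439 probes of each array (100 is the brightest), drawn as in the plot of deposited intensities, with 4 weeks left and mean ± SD of 4 arrays as a black bar. The mean difference is -29.8 for HEMA3, with the 4-week arrays split in pairs, -19.1 for CHLM and -4.31 for AT1G74470.

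**Figure D3:**
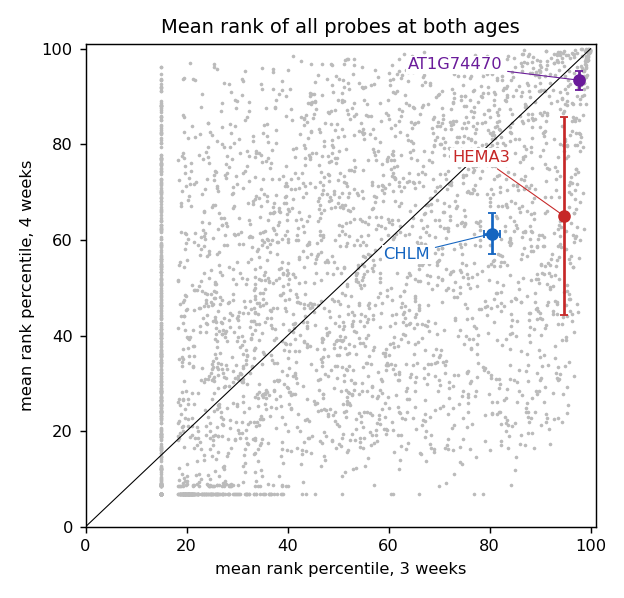
Mean rank percentile of every probe at 4 weeks (vertical) against 3 weeks (horizontal), 4 arrays each; grey points are the 3439 probes, the line marks equal rank, and the members carry bars of ± SD. All 3 members lie below the line, HEMA3 farthest and AT1G74470 nearest.

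For a test of each probe the intensities were quantile normalized between arrays, raised to a floor of 0.123, converted to log2 and fitted with limma, and p-values were adjusted over all 3439 probes (Benjamini-Hochberg). Measured in this way, against the rest of each array, all 3 members fell. Of all probes 27.4% passed as lower at 4 weeks and 29.2% as higher, 56.6% in all, so a member past the threshold is no rarity here.

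HEMA3 had normalized log2 values of -0.66, -0.71, -2.22 and -2.35 at 4 weeks, against 0.90, 0.89, 0.72 and 0.70 at 3 weeks. All 4-week values lay below all 3-week values, in the same 2 pairs. The log2 difference was -2.29 (SE 0.44, 95% interval -3.35 to -1.22, limma adjusted p = 0.00371). Arrays 1 and 2, and arrays 3 and 4, resembled each other at both ages. The margin over other pairs of arrays of the same age was smaller at 3 weeks. When each such pair was averaged before the fit, the call of HEMA3 was lost (limma adjusted p = 0.106). CHLM and AT1G74470 stayed lower and past the threshold in that fit.

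CHLM had normalized log2 values of -1.73, -1.93, -1.51 and -1.73 at 4 weeks, against -0.92, -0.83, -0.72 and -0.91 at 3 weeks. The 2 ages were apart by more than the range within either. The log2 difference was -0.88 (SE 0.09, 95% interval -1.11 to -0.66, limma adjusted p = 0.000166). Without scaling between arrays the direction turned to 1.06 (SE 0.05, limma adjusted p = 1.71e-06), where the median over all probes was 0.41. In that setting all 3-week values of CHLM lay below the floor of 0.263, so only a rise could show.

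AT1G74470 had normalized log2 values of 0.21, 0.14, 0.98 and 0.84 at 4 weeks, against 2.16, 2.14, 2.26 and 2.18 at 3 weeks. The ages were separated by more than 1 log2 unit. The log2 difference was -1.64 (SE 0.21, 95% interval -2.13 to -1.15, limma adjusted p = 0.000382). It did not pass under cyclic loess after median scaling (0.16, limma adjusted p = 0.268) or under cyclic loess of the deposited values with a floor of 0.01 (-0.13, limma adjusted p = 0.412).

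Across the scalings HEMA3 was the member whose direction held: its log2 difference was negative and past the threshold under quantile normalization, a common 75th percentile (-3.78), a common median (-5.20), no scaling (-1.27) and 3 forms of cyclic loess (-3.70, -1.17 and -1.35). The size ran from -1.17 to -5.20. The difference of CHLM was positive without scaling and near 0 under cyclic loess (0.00775, limma adjusted p = 0.991). That loess also began from values raised to the floor of 0.263, above all 3-week values of CHLM. CHLM was lower and passed under cyclic loess after median scaling (-0.51, limma adjusted p = 0.0117). With a floor of 0.01 it was lower and passed too. AT1G74470 was lower and past the threshold under quantile normalization, a common median (-5.43), a common 75th percentile and no scaling (-1.49). It also passed as lower under cyclic loess (-1.54, limma adjusted p = 0.0356). Its difference was positive and did not pass under cyclic loess after median scaling. Under cyclic loess with a floor of 0.01 it was negative and did not pass. Both of these last settings were chosen after seeing the data.

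**Figure D4:**
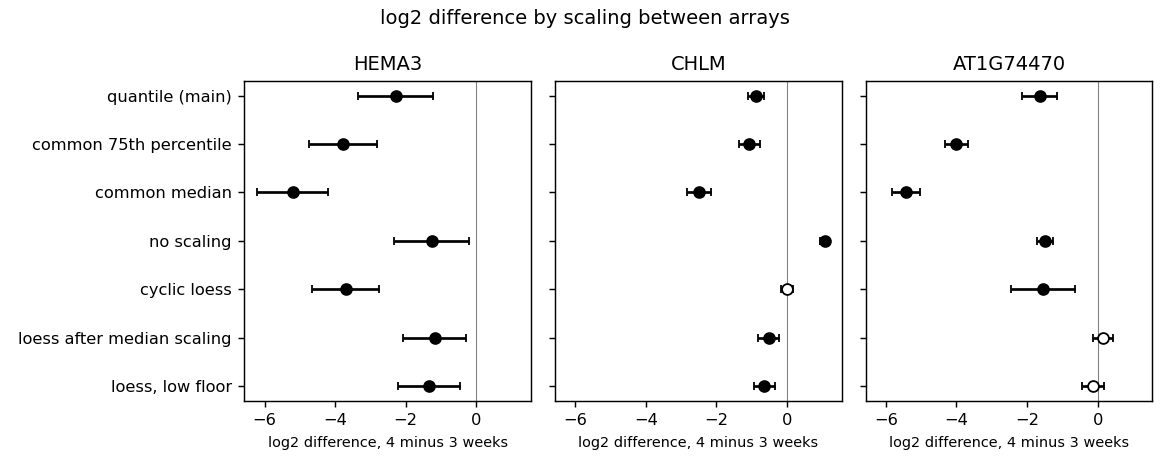
log2 difference (4 weeks minus 3 weeks) of the 3 probes under 7 ways of scaling between arrays; points are limma estimates from 8 arrays, bars 95% intervals, and filled points passed an adjusted p of 0.05. HEMA3 is negative in every row, CHLM is 1.06 without scaling against -0.88 after quantile normalization, and AT1G74470 lies near 0 in the lower loess rows.

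A factor that multiplies a whole array cancels in the ratio of a pair of probes on that array. A difference in the shape of the distribution does not cancel, and the distributions of the ages differed. The change in such a ratio between ages can therefore hold more than unequal moves of the members. The ratio itself is not a ratio of transcript levels, because probes differ in how strongly they bind. In deposited values the ratios of CHLM to both other members did not overlap between the ages. The same held for 70.6% of all pairs of probes above 0 on every array. No shift was shown between AT1G74470 and HEMA3.

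The log2 ratio of AT1G74470 over CHLM was 1.52, 1.64, 1.80 and 1.87 on the 4-week arrays, against 4.84, 4.55, 4.37 and 4.78 on the 3-week arrays. The arrays of each age lay within 0.5 of each other and the ages far apart. The difference was -2.93, a 7.63-fold lower ratio at 4 weeks (exact permutation p = 0.0286, adjusted p = 0.0429 over 3 ratios, two-sided). In quantile normalized values the difference was -0.76, with the same p. Within replicates 1 and 2 the deposited difference was -3.12 and within replicates 3 and 4 it was -2.75.

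The log2 ratio of CHLM over HEMA3 was -0.88, -1.02, 0.67 and 0.59 at 4 weeks, against -3.21, -3.01, -2.42 and -2.83 at 3 weeks. The ages again did not overlap, while the 4-week arrays were split by pair. The difference was 2.71, a 6.52-fold higher ratio at 4 weeks (exact permutation p = 0.0286, adjusted p = 0.0429 over 3 ratios). In quantile normalized values it was 1.40, with the same p. The deposited difference was 2.16 within replicates 1 and 2 and 3.25 within replicates 3 and 4. For both ratios the sign-flip permutation with arrays matched by number gave an adjusted p of 0.188 from its smallest possible p of 0.125.

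The log2 ratio of AT1G74470 over HEMA3 was 0.63, 0.62, 2.46 and 2.46 at 4 weeks, against 1.63, 1.54, 1.95 and 1.96 at 3 weeks. The 3-week values lay between the pairs of 4-week values. The mean difference of -0.23 was far inside the spread of the 4-week arrays (SD 1.06) and did not pass (exact permutation p = 0.657, adjusted p = 0.657 over 3 ratios). In quantile normalized values the sign turned, to 0.64, and the adjusted p of the exact permutation test was 0.429. The pairs disagreed in direction, with a difference of -0.96 within replicates 1 and 2 and of 0.51 within replicates 3 and 4. Ratios with no overlap between the ages were common: among all pairs of the 1840 probes above 0 on every array, 70.6% had one in either direction, so the 2 of 3 found here are near the background.

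**Figure D5:**
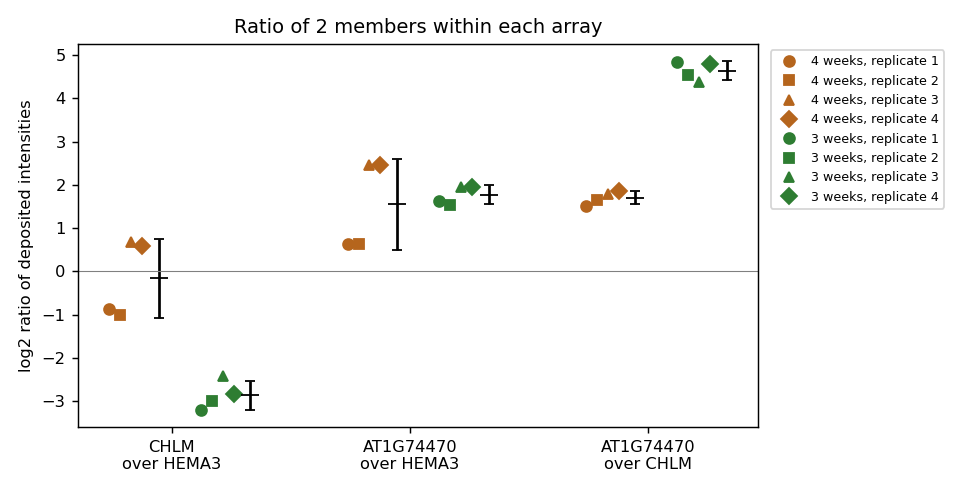
log2 ratio of the deposited intensities of 2 members on the same array, 4 weeks left of 3 weeks in each group; symbols mark the replicate number and black bars the mean ± SD of 4 arrays. AT1G74470 over CHLM differs by -2.93, CHLM over HEMA3 is 2.71 higher at 4 weeks, and for AT1G74470 over HEMA3 the 4-week pairs lie on either side of the 3-week arrays.

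The split of the 4-week arrays was widest for HEMA3. Replicates 1 and 2 averaged 1.04 in deposited intensity and replicates 3 and 4 averaged 0.364, a 2.85-fold gap, or 1.60 in normalized log2 values. Of the 1388 probes above the floor on all 8 arrays, 18 (1.30%) had a gap at least as wide between these pairs at 4 weeks, 17 of them in the same direction, against a median gap of 0.20. For AT1G74470 the gap was -0.73, which 4.90% of these probes matched or passed in size, and for CHLM it was -0.21, matched or passed by 47.9%. At 3 weeks the gaps were 0.19, -0.07 and -0.06 for HEMA3, AT1G74470 and CHLM, against a median of 0.19. Across all probes the arrays of such a pair had Spearman correlations of 0.962 and 0.974 at 4 weeks, and other 4-week arrays 0.920 to 0.929. At 3 weeks the margin was smaller, with 0.876 and 0.885 within the pairs and 0.845 to 0.870 between other arrays. What the pairs share is not given in the labels, and its part in these results was not tested.

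Within each pair the direction of every member was the same by rank. HEMA3 had a mean rank difference of -12.2 within replicates 1 and 2 and of -47.3 within replicates 3 and 4. For CHLM these were -21.2 and -17.0, and for AT1G74470 -6.00 and -2.62. HEMA3 thus moved most in the pair in which the other members moved least. In normalized log2 values HEMA3 differed by -1.58 and -2.99 within the pairs, CHLM by -0.96 and -0.81, and AT1G74470 by -1.97 and -1.31.

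Genes whose profile over the 8 arrays was most like each member were taken from 253 other probes with 1 gene above the floor on every array. Likeness was the root mean square difference of normalized log2 values after subtracting each probe's mean. All arrays of an age share that age, so this describes the pattern and carries no test. Nearest to HEMA3 was AT3G54210, at a distance of 0.34, followed by AT3G15900, AT5G14590, AT5G19540 and RAP74, a subunit of the general transcription factor TFIIF, at 0.60 to 0.62. AT3G54210 showed the same pairs, with 1.19, 1.27, 0.294 and 0.272 at 4 weeks, against 2.01, 2.08, 0.990 and 0.735 at 3 weeks in deposited intensity. HEMA3 therefore had 1 near neighbour and then a clear step to the next.

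Nearest to CHLM were AT5G40470, AT4G23080, AT5G47890, AT1G13990 and AT3G26580, at distances of 0.11 to 0.18. The deposited intensity of each of these 5 was higher at 4 weeks with no overlap between the ages, as for CHLM. The same held for 68.3% of all probes, and these 5 were picked for their likeness to CHLM. Nearest to AT1G74470 were CCL, LHB1B2, CML41, AT3G45770 and AT3G26630, at 0.19 to 0.23. LHB1B2, a chlorophyll a/b-binding protein of the light-harvesting antenna, differed by -1.52 between the ages (SE 0.11, quantile normalized log2), beside -1.64 for AT1G74470. Of these 10 genes, LHB1B2 and AT3G26630 turned positive, 0.27 and 0.48, under cyclic loess after median scaling. Without scaling, which put the median of all probes at 0.41, the other 8 were positive. CCL (0.0123) and AT3G45770 (0.0249) lay below that median and did not pass (limma adjusted p = 1 for each).

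The rest of the pathway was thinly covered. Of 69 genes listed for tetrapyrrole synthesis, chlorophyll turnover and phytyl supply, 5 had a probe of their own: the 3 members, SIRB and AT5G63290. By branch these were 1 of 8 genes of aminolevulinic acid formation, 1 of 11 from there to protoporphyrin, 2 of 17 of the magnesium branch, 1 of 9 of the haem, bilin and sirohaem branch, 0 of 10 of chlorophyll turnover and 0 of 14 of phytyl and isoprenoid supply. A further 4 probes hold a listed gene together with another gene and are not used for any gene here. Of the 5, 3 fell, 0 rose and 2 did not pass in limma after quantile normalization, where 27.4% of all probes passed as lower and 29.2% as higher. The median log2 difference of the 5 was -0.88, which is the value of CHLM, against 0 over all probes tested. The 5 include the 3 members, so this median adds nothing on the rest of the pathway. The 0 is no matched background, since 1388 of the 3439 probes were above the floor on all 8 arrays.

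SIRB, the sirohydrochlorin ferrochelatase of sirohaem synthesis, had deposited intensities of 0.305, 0.443, 0.257 and 0.253 at 4 weeks, against 0.00683, 0.0645, 0.0250 and 0.0321 at 3 weeks. The deposited values were all higher at 4 weeks, as for CHLM, but the rank percentiles overlapped, from 34.8 to 49.8 at 4 weeks and from 38.5 to 64.7 at 3 weeks. Its log2 difference was -0.49 (SE 0.26, limma adjusted p = 0.160), and with the replicate number as a block it passed (limma adjusted p = 0.0302). AT5G63290 was listed at 0 on all 4 arrays of 4 weeks and on 3 of 4 arrays of 3 weeks, with 0.0119 on the remaining one, so its level is not known.

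Of 34 marker genes listed for organs and leaf stages, 2 had a probe of their own: LHB1B2 for green leaf and PPDK for late leaf. None of the 20 genes for root, flower and seed did, so the makeup of the sampled plants could not be read from these arrays. LHB1B2 averaged 13.9 ± 1.70 at 4 weeks and 73.5 ± 10.1 at 3 weeks (SD, n = 4 each), and stood at a mean rank percentile of 99.1 and 99.7. PPDK averaged 0.421 ± 0.0834 at 4 weeks and 0.0870 ± 0.0143 at 3 weeks in deposited intensity, but its mean rank percentile was 49.8 at 4 weeks and 68.6 at 3 weeks. Its quantile normalized log2 difference was -0.77 (limma adjusted p = 0.0167, and 0.0557 with the replicate block), against 0.66 without scaling. Without scaling all 3-week values of PPDK lay below the floor of 0.263, so only a rise could show. The part of these markers in the results for the 3 enzymes was not tested.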

How the data were processed

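The values are linear intensities as the authors deposited them, 1 column per sample. How they corrected background and scaled the arrays, and with what software, is not given in the sources used. Signal over background is unknown, and precision is limited by having 4 arrays per age. Probes were named through the platform's probe table and RefSeq symbols (TAIR10.1), with 690 of 692 single-gene probes matched. Intensities were quantile normalized, raised to a floor (0.123, the normalized intensity at rank 1099, the largest number of zeros on an array) and converted to log2. limma 3.58.1 in R 4.3.3 fitted age alone (lmFit, eBayes), with Benjamini-Hochberg adjustment over 3439 probes. The fit was tested on simulated arrays whose distributions were alike at both ages. Those of the real arrays were not, so that test does not cover the scaling between ages. Exact permutation tests used SciPy 1.17.1. Likeness over 8 arrays named 5 further genes per member, and the listed genes with a probe of their own are named too. Same-numbered arrays deviated together from their age means (r of 0.171 to 0.236, other pairs -0.184 to 0.106), so the replicate block is read as a pairing. The members and lists were chosen with earlier results of these data known.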

Additional observations from a re-analysis of the deposited data

Results flagged for a closer look

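Among 25 groups of 4 arrays examined for the 5 pathway genes, 3 held an array far from the other arrays of its age. Chance gives about 1.25, but the groups were not independent. The same arrays were examined by several measures, and both flags of SIRB are the same array. SIRB at 4 weeks stood apart in replicate 2, with a gap of 0.919 of the range in normalized log2 intensity (-2.17 against -2.80, -2.80 and -2.85) and of 0.938 in rank percentile (49.8 against 35.7, 35.6 and 34.8). AT5G63290 at 3 weeks was above 0 in replicate 4 alone, with a deposited intensity of 0.0119 against 0 on the other arrays, a gap of 1 of the range. No array of a member stood apart in this way; the 4-week arrays of HEMA3 lay in pairs.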

How the results depend on the processing

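The replicate block changed no call of a member in limma, and the fit over probes with 1 gene alone, array weights, a floor at the median probe and the fit over probes above 0 on all arrays each kept all 3 members lower and past the threshold. Without scaling the differences were 1.06 for CHLM, 0.79 for AT5G40470, 0.77 for AT4G23080, 0.75 for AT5G47890, 1.30 for AT1G13990, 0.51 for AT3G26580, 0.57 for CML41, 0.0123 for CCL and 0.0249 for AT3G45770, all negative after quantile normalization; the median over all probes was 0.41, and CCL and AT3G45770 did not pass. Under cyclic loess they were 0.00775 for CHLM, 0.0118 for AT5G40470, 0.0122 for AT4G23080, 0.0123 for AT5G47890 and 0.0870 for AT3G26630. Both settings used a floor of 0.263, which lay above all 3-week values of CHLM, AT5G40470, AT4G23080 and AT5G47890. Under 2 loess settings chosen after seeing the data, loess after median scaling gave 0.16 for AT1G74470, 0.27 for LHB1B2 and 0.48 for AT3G26630, and loess with a floor of 0.01 gave -0.13 for AT1G74470, 0.0774 for LHB1B2 and 0.28 for AT3G26630, with a median over all probes of 0.19. HEMA3 kept -2.29 when replicate pairs were averaged (limma adjusted p = 0.106). The causes were not tested.

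Calls over all probes numbered 1946 (1004 higher, 942 lower) and became 525 under cyclic loess (157 and 368) and 368 among the 692 probes with 1 gene; the split was 1710 and 263 without scaling, 688 and 1160 at a common median and 1186 and 720 at a common 75th percentile. With the replicate block the rank differences of -29.8, -19.1 and -4.31 had p = 0.125 in the exact sign-flip permutation, and the ratio differences of 2.71 (CHLM over HEMA3) and -2.93 (AT1G74470 over CHLM) an adjusted p of 0.188. In quantile normalized values the ratio differences were 1.40 (CHLM over HEMA3), -0.76 (AT1G74470 over CHLM) and 0.64 (AT1G74470 over HEMA3).

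Leaving out 1 array kept every member past the threshold in limma, with -2.72 to -2.11 for HEMA3, -0.996 to -0.81 for CHLM and -1.87 to -1.55 for AT1G74470, and 1830 to 1892 calls. Rank differences ran from -35.9 to -23.3, from -20.8 to -17.4 and from -4.96 to -3.64, and ratio differences from 2.43 to 2.99 (CHLM over HEMA3), -3.02 to -2.86 (AT1G74470 over CHLM) and -0.53 to 0.0815 (AT1G74470 over HEMA3); with 3 arrays against 4 an exact p cannot go below 0.0571.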
